A study of Mus musculus with 5 samples.

Results

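Arrdc2, Ip6k3 and 6 genes that glucocorticoids are known to induce (Txnip, Fkbp5, Tsc22d3, Zbtb16, Pdk4 and Sgk1) were followed in mouse retinas after optic nerve crush (ONC), as 8 of the 25655 genes in the count table. They were taken by gene symbol, and the symbols had been chosen by measured Sorbinil and DMSO values of these same retinas, so their differences are given as a description, with no test. Arrdc2 and Ip6k3 were below every DMSO retina in both Sorbinil retinas, at 0.381 and 0.448 of the DMSO mean. Tsc22d3 was also lower in both, by a smaller amount. Txnip, Fkbp5, Zbtb16, Pdk4 and Sgk1 overlapped between the groups, and Pdk4 and Sgk1 moved in opposite directions in the 2 Sorbinil retinas.

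Whole retinas were sequenced to ask which transcripts differ between injured eyes treated with vehicle and with Sorbinil, an inhibitor of aldose reductase, the first enzyme of the polyol pathway. Both groups were C57BL/6 wildtype mice of both sexes, 8 to 10 weeks of age, whose left optic nerve was crushed, and retinas were collected on day 7. One group of 3 retinas (replicates 1, 2 and 3) came from mice injected daily with the vehicle DMSO, starting the day before ONC. The other group of 2 retinas (replicates 1 and 3) came from mice given Sorbinil at 10 mg/kg on the same schedule. Sorbinil replicate 2 was not among the samples used here. The study states that a Sorbinil replicate was left out after principal component analysis of mapped reads. The spread within the Sorbinil group is therefore that of the retinas kept. Every retina compared had been injured, so the values say nothing of the response to ONC itself. The labels do not tie the replicate numbers to separate litters or days, and the p-values below measure only the spread between these 5 retinas.

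Glucocorticoids enter cells and bind the glucocorticoid receptor, which leaves its chaperones, moves to the nucleus and activates genes through paired half-sites in DNA. In the retina the receptor is known above all in Müller glia, the radial glia that span the tissue. Fkbp5, Tsc22d3, Zbtb16, Per1, Pdk4 and Sgk1 are widely used readouts of the receptor in many tissues, and Txnip and Arrdc2 also answer to nutrient and insulin signals.

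The libraries held 56096541 to 90288552 counts on genes. The counts were scaled by the TMM method and are given as CPM, the counts of each library brought to a common total. A negative log2 fold change stands for a lower level with Sorbinil. The retina labelled Sorbinil replicate 1 stood apart from the others. Its summed Müller glia markers were 0.352 of the DMSO mean (10 of 10 detected), its endothelial and pericyte markers 0.385 and its rod markers 1.52, whereas Sorbinil replicate 3 measured 0.992, 0.979 and 0.772 for the same 3 lists. In whole tissue, fewer cells of a type and less RNA per cell cannot be told apart. Y-linked transcripts placed DMSO replicates 1 and 2 and Sorbinil replicate 1 as male, and DMSO replicate 3 and Sorbinil replicate 3 as female. Members are therefore also compared within each sex, a comparison added after seeing the data. It is given as the log2 ratio of CPM of 1 Sorbinil retina to the mean of 2 male or to 1 female DMSO retina. Each sex has 1 Sorbinil retina, so sex cannot be told apart from differences between single retinas.

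The stretches before the starts of Arrdc2, Ip6k3 and Txnip are shown because the first 2 followed the most similar course of any pair of members and Txnip carries a tandem element described below. They are the 250 bases upstream of the GENCODE vM39 canonical start, read from GRCm39 on the strand of the gene, 5′ to 3′. Capitals mark the CCAAT box (CCAAT on either strand) in all 3, and in Txnip also the FOXO site (TGTTTAC on either strand) and a tandem element (CACGAGNNNNNCACGAG). The Arrdc2 stretch is chr8:71292365-71292614 on the minus strand, the Ip6k3 stretch chr17:27386787-27387036 on the minus strand, and the Txnip stretch chr3:96465017-96465266 on the plus strand.
Arrdc2: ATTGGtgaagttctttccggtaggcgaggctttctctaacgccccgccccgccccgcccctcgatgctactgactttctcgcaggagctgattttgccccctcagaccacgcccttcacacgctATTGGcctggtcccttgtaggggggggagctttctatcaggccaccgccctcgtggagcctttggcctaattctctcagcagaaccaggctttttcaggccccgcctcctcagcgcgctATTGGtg
Ip6k3: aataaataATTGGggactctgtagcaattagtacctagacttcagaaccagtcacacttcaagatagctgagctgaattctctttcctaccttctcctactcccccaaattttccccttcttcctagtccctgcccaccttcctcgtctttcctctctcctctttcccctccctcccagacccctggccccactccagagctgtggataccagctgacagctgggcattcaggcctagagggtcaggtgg
Txnip: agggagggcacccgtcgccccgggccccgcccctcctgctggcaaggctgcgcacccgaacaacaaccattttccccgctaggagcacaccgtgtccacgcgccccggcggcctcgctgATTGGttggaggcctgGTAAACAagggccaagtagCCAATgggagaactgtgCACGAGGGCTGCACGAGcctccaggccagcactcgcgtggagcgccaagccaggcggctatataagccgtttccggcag

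Motifs were searched on both strands in the 300 bases from 250 before to 50 after the start, in all 21770 promoters of protein-coding genes that could be read. Arrdc2 held the CCAAT box at positions -250, -126 and -7 from the start, Ip6k3 at -242 and Txnip at -131 and -96. The CCAAT box was found in 39.9% of all promoters, so its presence does not set these genes apart. The Txnip window held the FOXO site at -115, a motif found in 3.15% of promoters. Txnip also held the tandem element at -79, known as a carbohydrate response element through which glucose raises Txnip, and it was the 1 promoter of the 21770 with that arrangement (0.00459%). The CCAAT box and the tandem element were chosen after the sequences were seen. The tandem element was searched with the exact letters of the Txnip promoter, so Txnip had to match. Its count therefore does not measure how rare such elements are. The glucocorticoid receptor half-site (AGAACA) occurs in 17% of promoters and was in none of the 8 members' windows. The full element (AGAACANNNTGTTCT) was in 0 of 21770, so its absence from the members says nothing about them. Sites outside the 300 bases were not searched, and the members may hold receptor sites there. The E-box (CACGTG, 7.81% of promoters) was in the Fkbp5 window at -140, and the D-box (TTATGTAA, 0.937%) was in none of the 8.

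Arrdc2 (ENSMUSG00000002910, chr8:71287770-71292364, minus strand, GRCm39) encodes an α-arrestin, an adaptor that links membrane proteins to NEDD4-family ubiquitin ligases, and its transcript is known to rise with glucocorticoids in muscle. It measured 10.9, 11.2 and 12.6 CPM in DMSO replicates 1, 2 and 3 and 3.90 and 4.92 CPM in Sorbinil replicates 1 and 3, from 1053, 896 and 700 counts and 205 and 334 counts. Both Sorbinil retinas lay well under the 3 DMSO retinas, which were close to each other. The means were 11.6 ± 0.908 CPM (SD, n = 3) and 4.41 ± 0.722 CPM (SD, n = 2), with a log2 fold change of -1.39. Against the DMSO mean, the log2 difference was -1.57 in Sorbinil replicate 1 and -1.23 in replicate 3. Within the males it was -1.50 and within the females -1.36.

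**Figure D1:**
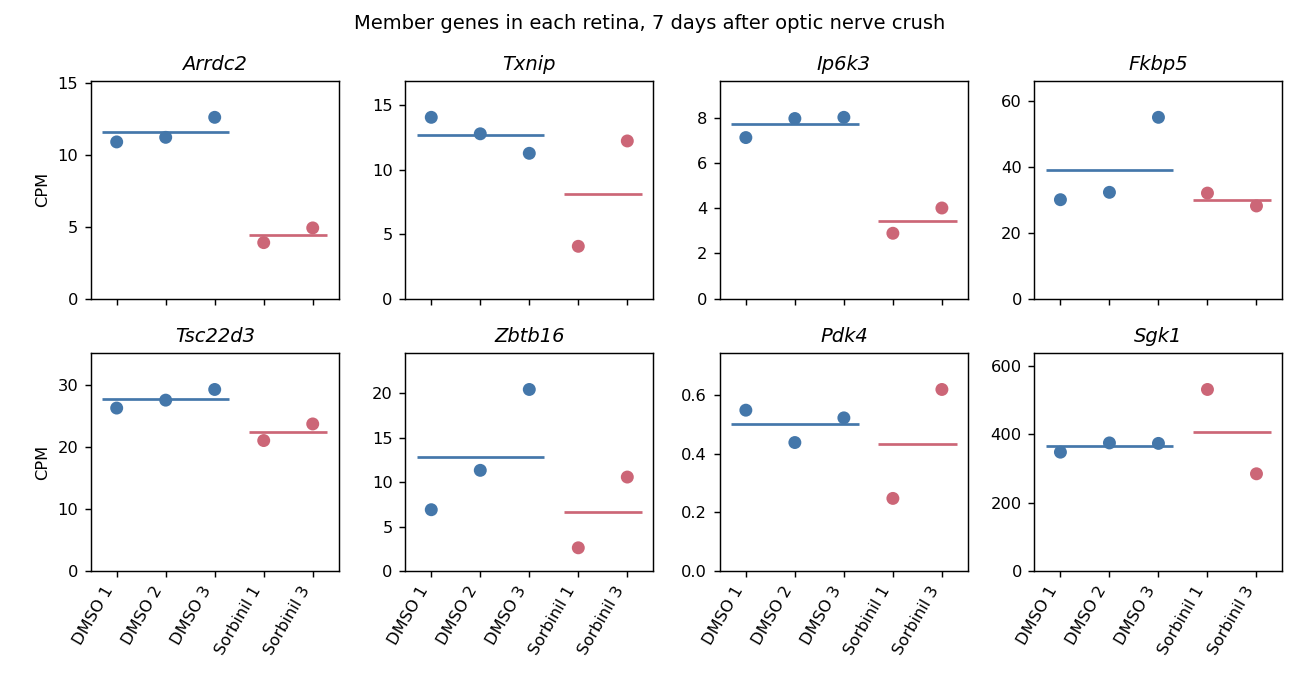
CPM (vertical axes, from 0) of the 8 genes in each of the 5 retinas. Points are single retinas, blue for DMSO and red for Sorbinil, and lines are group means. Both Sorbinil points lie under every DMSO point for Arrdc2, Ip6k3 and Tsc22d3.

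Ip6k3 (ENSMUSG00000024210, chr17:27362937-27390305, minus strand) encodes an inositol hexakisphosphate kinase, which makes the inositol pyrophosphate InsP7, and is best known from skeletal muscle and brain. It measured 7.12, 7.96 and 8.01 CPM with DMSO and 2.89 and 4.01 CPM with Sorbinil (688, 636 and 445 counts, then 152 and 272). The groups did not overlap, and Sorbinil replicate 1 was the lowest retina, as for Arrdc2. The means were 7.69 ± 0.501 CPM (SD, n = 3) and 3.45 ± 0.789 CPM (SD, n = 2), and the log2 fold change was -1.15. The log2 difference from the DMSO mean was -1.41 in Sorbinil replicate 1 and -0.94 in replicate 3, and it was -1.38 within the males and -0.999 within the females. Summed skeletal muscle markers ran from 4.78 to 8.17 CPM in DMSO retinas and were 4.45 and 9.33 CPM in Sorbinil replicates 1 and 3, with Myh1, Myh2, Tnnt3 and Tnni2 at 0 counts in at least 1 retina. Of the 12 markers 7 passed the filter on low counts, and their part in the Ip6k3 values was not tested. A long noncoding RNA gene on the opposite strand overlaps 195 bases of the Ip6k3 exons.

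Txnip (ENSMUSG00000038393, chr3:96465267-96469201, plus strand) encodes thioredoxin-interacting protein, an α-arrestin that binds thioredoxin and limits glucose uptake. Its expression was 14.1, 12.8 and 11.3 CPM in the DMSO retinas, 4.07 CPM in Sorbinil replicate 1 and 12.2 CPM in Sorbinil replicate 3. Only Sorbinil replicate 1 was low, and replicate 3 lay inside the DMSO range. The log2 fold change was -0.64, and against the DMSO mean the log2 difference was -1.64 in Sorbinil replicate 1 and -0.055 in replicate 3. Between the females the difference was 0.12, and among the males -1.72. Arrdc2, its relative, was low in both Sorbinil retinas. A long noncoding RNA gene on the opposite strand covers 928 bases of the Txnip exons, and it is not stated whether the counting used strand.

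Tsc22d3 (ENSMUSG00000031431, chrX:139440091-139501408, minus strand) encodes GILZ, the glucocorticoid-induced leucine zipper, which restrains NF-κB and AP-1. It measured 26.3, 27.6 and 29.3 CPM with DMSO and 21.1 and 23.8 CPM with Sorbinil. Both Sorbinil retinas were below all DMSO retinas, though by little. The means were 27.8 ± 1.51 CPM (SD, n = 3) and 22.4 ± 1.90 CPM (SD, n = 2), with a log2 fold change of -0.31, and the differences within males and females were -0.36 and -0.30.

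Fkbp5 (ENSMUSG00000024222, chr17:28618058-28737521, minus strand) encodes FKBP51, a co-chaperone that is induced by the glucocorticoid receptor and lowers its hormone binding. Its level was 30.1, 32.3 and 55.0 CPM in the DMSO retinas and 32.1 and 28.2 CPM in the Sorbinil retinas. DMSO replicate 3 stood above the other 4 retinas, which lay close together. The log2 fold change was -0.38 over all retinas and -0.05 without DMSO replicate 3. The log2 ratio was 0.04 within the males and -0.97 within the females, the latter resting on DMSO replicate 3. Fkbp5 and Sgk1 also have noncoding genes over part of their exons on the opposite strand.

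Zbtb16 (ENSMUSG00000066687, chr9:48563141-48748664, minus strand), which encodes the zinc finger repressor PLZF, measured 6.90, 11.3 and 20.4 CPM with DMSO and 2.61 and 10.6 CPM with Sorbinil. DMSO replicate 3 was again the highest and Sorbinil replicate 1 the lowest, while Sorbinil replicate 3 fell among the DMSO retinas. The DMSO retinas alone differed by 2.96-fold, the widest DMSO range of the 8 genes. The log2 fold change of -0.96 became -0.26 without Sorbinil replicate 1 and -0.46 without DMSO replicate 3. The log2 ratio was -1.81 within the males and -0.95 within the females, the latter resting on DMSO replicate 3. Pigment epithelium markers summed to 178 CPM in DMSO replicate 3, against 65.4 and 68.5 CPM in the other DMSO retinas and 57.2 and 100.0 CPM in Sorbinil replicates 1 and 3. Their part in the Fkbp5 and Zbtb16 values was not tested.

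Pdk4 (ENSMUSG00000019577, chr6:5483097-5496339, minus strand) encodes a pyruvate dehydrogenase kinase that spares glucose when fatty acids are used. It was close to the lower limit of what these libraries measure, since DMSO replicates 1, 2 and 3 gave 53, 35 and 29 counts and Sorbinil replicates 1 and 3 gave 13 and 42. These correspond to 0.548, 0.438 and 0.522 CPM and to 0.247 and 0.619 CPM. The Sorbinil retinas were the lowest and the highest of the 5, on either side of the DMSO range, and the log2 fold change was -0.20. For the 13 counts of Sorbinil replicate 1, the exact Poisson 95% interval was 6.92 to 22.2, which covers counting error only.

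Sgk1 (ENSMUSG00000019970, chr10:21758083-21875802, plus strand), the serum- and glucocorticoid-regulated kinase that controls ion channels, was the most abundant member per length, at 60.7 CPM per kilobase of exon with DMSO. It measured 347, 374 and 373 CPM with DMSO, 531 CPM in Sorbinil replicate 1 and 284 CPM in Sorbinil replicate 3. The DMSO retinas were nearly equal and the Sorbinil retinas lay above and below them. Against the DMSO mean the log2 difference was 0.54 in Sorbinil replicate 1 and -0.36 in replicate 3. The log2 fold change over both was 0.16, and it was 0.01 when libraries were scaled by size alone. The log2 ratio was 0.56 within the males and -0.39 within the females. Rod markers moved in the same direction as Sgk1 in each Sorbinil retina, at 1.52 and 0.772 of the DMSO mean, and their part in the Sgk1 values was not tested.

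**Figure D2:**
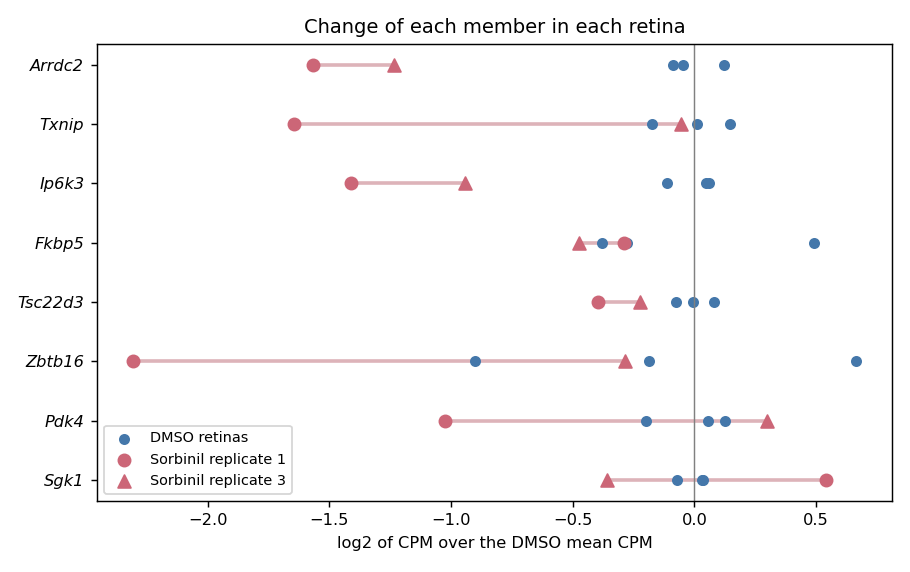
Log2 of each retina's CPM over the DMSO mean CPM (horizontal axis) for the 8 genes. Blue points are DMSO retinas, the red circle Sorbinil replicate 1 and the red triangle Sorbinil replicate 3. The circle and triangle lie on the same side of all DMSO points for Arrdc2, Ip6k3 and Tsc22d3, close together among or near them for Fkbp5, far apart for Txnip and Zbtb16, and on opposite sides of 0 for Pdk4 and Sgk1.

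Of the 8 genes, 3 were below every DMSO retina in both Sorbinil retinas and 0 were above, where 10.5% of the 14992 genes tested were below and 12.8% above. All 8 passed the filter on low counts. Nothing is read from that count, since the genes were selected on these values. Their median log2 fold change was -0.51, with a median of -1.22 in Sorbinil replicate 1 and -0.32 in replicate 3. The median over all genes tested was -0.01. Marker lists of several cell types had medians near that of the members, at -0.50 for microglia, -0.52 for pigment epithelium, -0.54 for astrocytes and gliosis and -0.58 for Müller glia. For rod markers it was 0.16. Arrdc2 and Ip6k3 were low in each Sorbinil retina, whereas Txnip, Zbtb16 and Pdk4 were low in replicate 1 and not below the DMSO range in replicate 3. Within the females, the log2 ratio was -0.95 for Zbtb16, against 0.12 for Txnip and 0.25 for Pdk4.

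Arrdc2 and Ip6k3, which lie on different chromosomes, had similar courses over the 5 retinas. Both had been chosen by their values in these retinas, so a small distance between them was favoured in advance. Likeness was measured as the root mean square distance between log2 CPM values, each centred on its own mean, over 13053 genes with at least 1 CPM on average. Ip6k3 was the nearest of them to Arrdc2, at 0.129. The next were Ugt1a6a, a glucuronosyltransferase gene whose shared exons with other Ugt1a genes make its counts uncertain (0.156), Cfi, which encodes complement factor I (0.181), Atp10a, a lipid flippase gene (0.186), and Ifit1, an interferon-induced gene (0.194). Nearest to Ip6k3 were Ifit1 (0.0835), Cd14, the lipopolysaccharide co-receptor of myeloid cells (0.110), Arrdc2 (0.129), Igfbp6, which encodes a binding protein of insulin-like growth factors (0.130), and Abcc4, an efflux transporter gene (0.146). Ifit1, for example, measured 12.3, 13.4 and 14.2 CPM with DMSO and 5.04 and 7.99 CPM with Sorbinil. The other members were far from Arrdc2 in this order, with Txnip at place 924, Tsc22d3 at 1337, Fkbp5 at 2765, Pdk4 at 3080, Zbtb16 at 5699 and Sgk1 at 10405. These distances are descriptions over 5 points that share their libraries, and no link between Arrdc2 and Ip6k3 is read from them.

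Markers of other cells were set beside Arrdc2 and Ip6k3. Summed microglia markers (10 of 10 detected) ran from 144 to 210 CPM in DMSO retinas and were 98.1 and 160 CPM in Sorbinil replicates 1 and 3. Summed retinal ganglion cell markers were 153 to 247 CPM with DMSO, then 72.3 and 190 CPM, and endothelial and pericyte markers were 373 to 569 CPM, then 186 and 473 CPM. The sums of all 3 lists were low in Sorbinil replicate 1 and within the DMSO range in Sorbinil replicate 3, whereas Arrdc2 and Ip6k3 were low in both. Single markers could differ from their sum. Like Arrdc2 and Ip6k3, 8 of the 14 endothelial and pericyte markers were below every DMSO retina in both Sorbinil retinas. So were 2 of the 10 microglia markers and 2 of the 7 retinal ganglion cell markers, against 10.5% of all genes tested. Because α-arrestin and glucocorticoid-induced genes vary with the time of day, clock genes were also summed. They gave 1599 to 1816 CPM with DMSO and 1361 and 1725 CPM with Sorbinil. Of the 14 clock genes, 10 had negative log2 fold changes. In both Sorbinil retinas 2 were below every DMSO retina and 2 above. Clock genes that move in opposite directions cancel in a sum, so it cannot show whether the time of day differed. Immediate early genes, which respond to handling and light, gave 155 to 182 CPM with DMSO and 193 and 171 CPM with Sorbinil. The part of any of these lists in the Arrdc2 and Ip6k3 values was not tested.

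**Figure D3:**
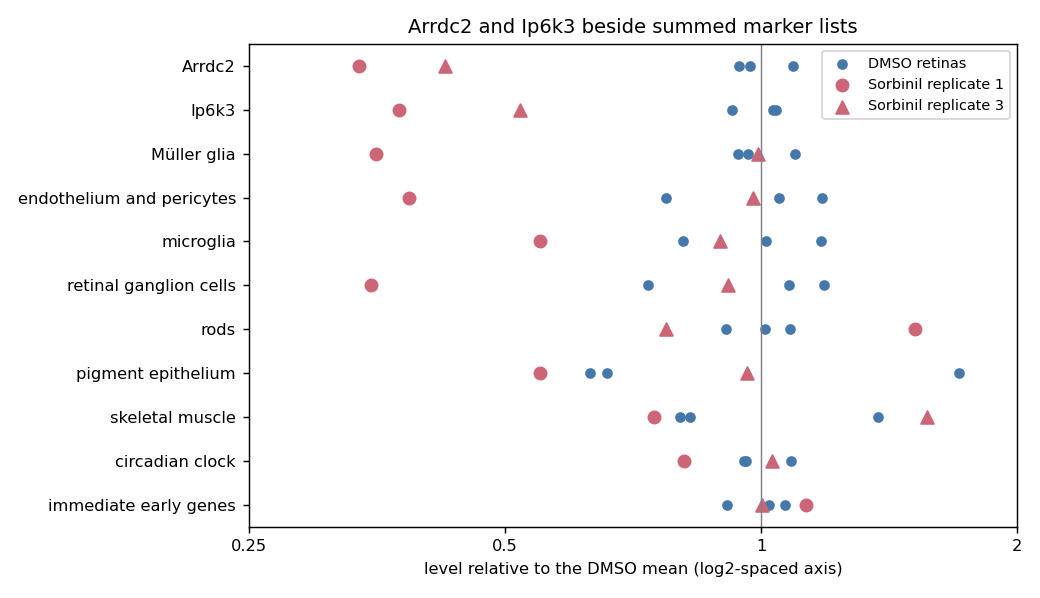
Level of Arrdc2, Ip6k3 and 9 summed marker lists in each retina relative to the DMSO mean (horizontal axis, log2-spaced). Blue points are DMSO retinas, the red circle Sorbinil replicate 1 and the red triangle Sorbinil replicate 3. Arrdc2 and Ip6k3 have both red symbols left of every blue point, and the triangle lies near 1 for the sums of Müller glia (0.992) and endothelium and pericytes (0.979).

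Levels were compared between relatives as CPM per kilobase of exon. Among the α-arrestins, Arrdc3 was the most abundant at 10.5 with DMSO and 12.7 with Sorbinil, then Txnip (4.02 and 2.58), Arrdc2 (3.44 and 1.31), Arrdc4 (0.932 and 1.12) and Arrdc1 (0.792 and 0.929). Arrdc2 thus held 17.5% of the family's level in DMSO retinas and 7.05% in Sorbinil retinas. Its closest paralogs were not lower, with log2 fold changes of 0.27 for Arrdc3 and 0.27 for Arrdc4 (unadjusted p = 0.149 and 0.283, edgeR's quasi-likelihood test).

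Among the inositol hexakisphosphate kinases, Ip6k1 and Ip6k2 carried most of the level, at 31.7 and 24.8 with DMSO, and Ip6k3 held 2.06% of the family with DMSO and 1.15% with Sorbinil. Ip6k2 was 138, 162 and 186 CPM in the DMSO retinas and 126 and 68.8 CPM in Sorbinil replicates 1 and 3. It was below every DMSO retina in both, but lowest in replicate 3, the reverse of Ip6k3. Its log2 fold change was -0.73 (standard error 0.29, unadjusted p = 0.0447, adjusted p = 0.758, edgeR's quasi-likelihood test), short of the 2-fold limit. Ip6k1 differed by -0.04 (unadjusted p = 0.789, edgeR), and the sign of that value changed when single retinas were left out.

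Pdk4 made up 0.767% of the 4 pyruvate dehydrogenase kinases with DMSO, and Pdk1, Pdk2 and Pdk3 were each between 4.76 and 6.80 per kilobase. Pdk1 and Pdk2 differed by -0.18 and -0.21 on the log2 scale (unadjusted p = 0.221 and 0.235, edgeR). Sgk1 was 99.5% of the level of Sgk1 and Sgk3 together, and Sgk3 differed by -0.09 (unadjusted p = 0.734, edgeR).

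**Figure D4:**
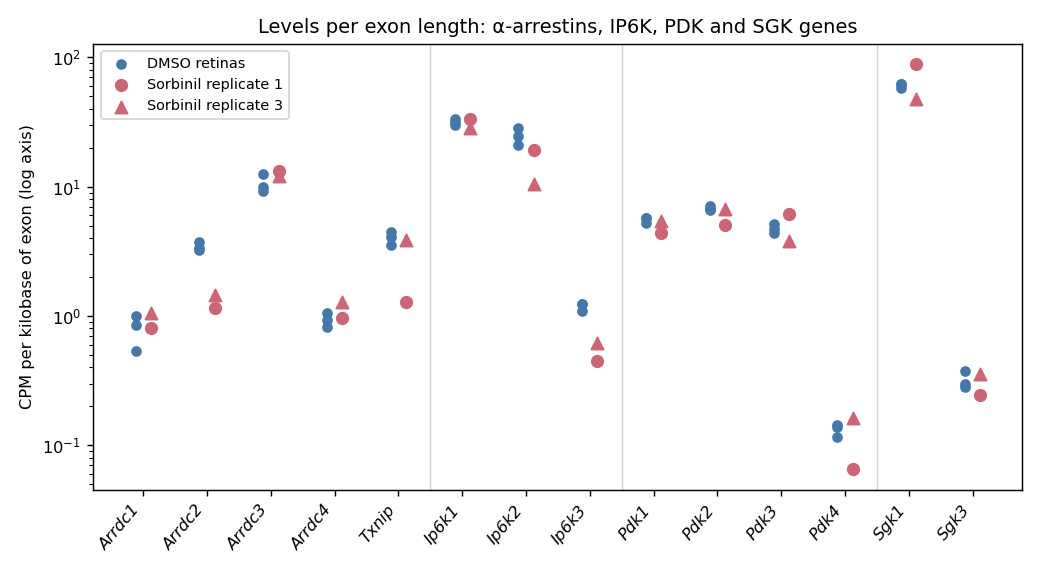
CPM per kilobase of exon (vertical log axis) of the members and their paralogs in each retina, by family. Blue points are DMSO retinas, the red circle Sorbinil replicate 1 and the red triangle Sorbinil replicate 3. Arrdc2 and Ip6k3 lie lower in both Sorbinil retinas, while Arrdc3, Arrdc4 and Ip6k1 do not.

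The wider pathways were described over 9 lists with 160 genes, of which 155 were tested. A gene was called at the threshold of the study, at least 2-fold with an unadjusted p of 0.1 or less, by edgeR's quasi-likelihood test. At that threshold 4 related genes were called lower and 0 higher, where 1.35% of all genes tested were called lower and 0.36% higher. At an unadjusted p under 0.05 with no fold limit, 7 were lower and 8 higher, where all genes gave 1.78% and 3.23%. In both Sorbinil retinas 28 of the 155 were below every DMSO retina and 21 above, against the 10.5% and 12.8% of all genes. The DESeq2 Wald test called 21 genes at an adjusted p under 0.05 over the whole table and edgeR called 0 (751 at an unadjusted p under 0.05), with a smallest adjusted p of 0.758, so every call here is unadjusted. For the genes named below the adjusted p lay between 0.758 and 0.928 (edgeR).

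Among the 9 related lists, the other glucocorticoid-induced genes (30 tested) had the lowest median, at -0.50. It was -0.91 in Sorbinil replicate 1 and -0.22 in replicate 3. Several marker lists had medians as low or lower, so a low median was not particular to this list. They were -0.98 for endothelium and pericytes, -0.72 for retinal ganglion cells, -0.58 for Müller glia, -0.54 for astrocytes and gliosis, -0.52 for pigment epithelium and -0.50 for microglia. The median of the rod markers was 0.16. In this list 3 genes were called lower and 0 higher, against 1.35% and 0.36% of all genes tested. In both Sorbinil retinas 9 of the 30 were below every DMSO retina and 0 above, against 10.5% and 12.8% of all genes tested. Sult1a1, a sulfotransferase gene, measured 1.21, 1.28 and 2.03 CPM with DMSO and 0.685 and 0.589 CPM with Sorbinil. Like Arrdc2 it was low in both Sorbinil retinas, with a log2 fold change of -1.24 (standard error 0.37, unadjusted p = 0.0165, adjusted p = 0.758, edgeR), which was -0.97 without DMSO replicate 3 and then no longer called. Hif3a, a hypoxia-inducible factor gene, fell by 1.38 on the log2 scale (unadjusted p = 0.0628, edgeR) and Fam107a, an actin-associated stress gene, by 1.36 (unadjusted p = 0.0669, edgeR). Both were lowest in Sorbinil replicate 1, at 0.913 and 3.06 CPM against 3.65 and 11.4 CPM in replicate 3, and without replicate 1 they stood at -0.69 and -0.70 and were not called.

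Per1, a clock gene with a well-known glucocorticoid response element, had the smallest p of the list. It measured 115, 120 and 112 CPM with DMSO and 86.6 and 75.4 CPM with Sorbinil. Both Sorbinil retinas were lower, and here replicate 3 was the lowest. The log2 fold change was -0.51 (standard error 0.12, unadjusted p = 0.00638, adjusted p = 0.758, edgeR). Klf15 and Cdkn1a, picked out after their values were seen, were also below every DMSO retina at -0.60 and -0.67 (unadjusted p = 0.0128 and 0.0457, edgeR), as were Anxa1, Mertk and Cables1. Klf9 and Dusp1, both standard targets of the receptor, differed by -0.11 and -0.26 (unadjusted p = 0.490 and 0.236, edgeR), and Klf9 changed sign without Sorbinil replicate 3. Of this list, 1 gene (Glul) is also among the 10 Müller markers, a count that does not cover other genes typical of a cell type. Summed Müller markers were 0.352 and 0.992 of the DMSO mean in Sorbinil replicates 1 and 3. Endothelial and pericyte markers were 0.385 and 0.979. The part of these markers in the list was not tested.

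**Figure D5:**
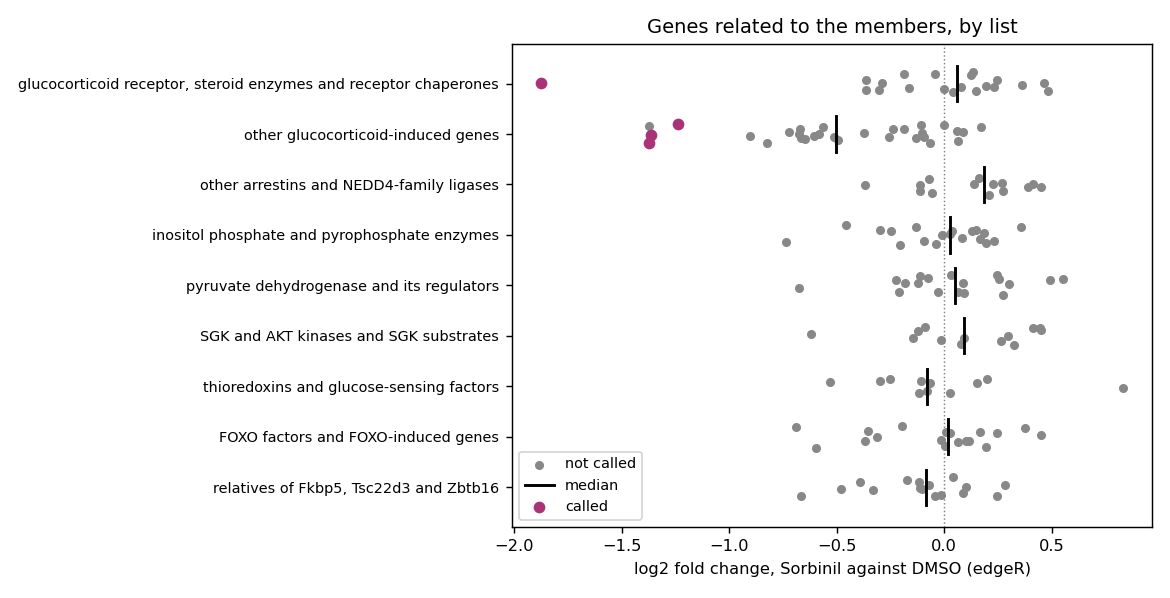
Log2 fold change of Sorbinil against DMSO (horizontal axis, edgeR) for each tested gene of the 9 related lists. Purple points were called (unadjusted p at most 0.1 and at least 2-fold), grey points were not, and black bars are list medians. The list of other glucocorticoid-induced genes has its median at -0.50, and the other 8 medians lie between -0.09 and 0.19.

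The list of the receptor, steroid enzymes and chaperones (20 tested) had a median of 0.06. In it 1 gene was called lower and 0 higher, against 1.35% and 0.36% of all genes tested. Nr3c1, the glucocorticoid receptor gene, measured 119, 126 and 126 CPM with DMSO and 200 and 140 CPM with Sorbinil. Both Sorbinil retinas were above every DMSO retina, and the log2 fold change was 0.46 (standard error 0.17, unadjusted p = 0.0398, adjusted p = 0.758, edgeR), short of the 2-fold limit. Nr3c2, the mineralocorticoid receptor gene, differed by 0.19 (unadjusted p = 0.130, edgeR), and Nrip1, a nuclear receptor corepressor gene, by 0.48 (unadjusted p = 0.00768, edgeR). Hsd11b1, whose enzyme regenerates active glucocorticoid, differed by -0.36 (unadjusted p = 0.457, edgeR), and the chaperone gene Fkbp4 by -0.04 (unadjusted p = 0.759, edgeR). The called gene was Abcb1a, the efflux pump P-glycoprotein of the blood-retinal barrier, which exports glucocorticoids. It measured 7.60, 6.41 and 4.55 CPM with DMSO and 0.571 and 2.77 CPM with Sorbinil, a log2 fold change of -1.88 (standard error 0.66, unadjusted p = 0.0314, edgeR). Abcb1a is an endothelial transcript. All 14 endothelial and pericyte markers had negative log2 fold changes, with a median of -0.98. Of these markers 8 were below every DMSO retina in both Sorbinil retinas, against 10.5% of all genes tested. The sums of these markers were 0.385 and 0.979 of the DMSO mean in Sorbinil replicates 1 and 3. Their part in the Abcb1a value was not tested.

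In the other 7 lists edgeR called 0 genes. At an unadjusted p under 0.05, 2 genes were lower and 6 higher, where all genes tested gave 1.78% and 3.23% (edgeR). The medians were 0.19 for 14 other arrestins and NEDD4-family ligases, 0.03 for 19 inositol phosphate enzymes, 0.05 for 18 genes of pyruvate dehydrogenase, 0.09 for 13 SGK and AKT genes, -0.08 for 11 thioredoxin and glucose-sensing genes, 0.02 for 18 FOXO genes and -0.09 for 16 relatives of Fkbp5, Tsc22d3 and Zbtb16. Their genes with the smallest p differed by less than 2-fold. Slc2a4, the insulin-responsive glucose transporter, was 0.83 higher (unadjusted p = 0.0187), Pdp2, a pyruvate dehydrogenase phosphatase, 0.49 (unadjusted p = 0.0216), Igf1r, a growth factor receptor, 0.45 (unadjusted p = 0.0220), Rictor, the mTORC2 subunit upstream of SGK1, 0.41 (unadjusted p = 0.0227) and Wwp1, a ligase bound by α-arrestins, 0.42 (unadjusted p = 0.0765), all log2 fold changes by edgeR. Tsc22d1, the paralog of Tsc22d3, differed by -0.33 (unadjusted p = 0.0737, edgeR). Foxo1 and Foxo3, which activate Txnip and Pdk4 in fasted tissue, differed by 0.25 and 0.17 (unadjusted p = 0.0575 and 0.262, edgeR).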

How the data were processed

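Total RNA of 5 whole retinas was sequenced from stranded libraries. Per the labels and the study's methods, the authors trimmed the reads, used CLC Genomics Workbench to map them to GRCm39, and deposited whole-number counts per gene without normalization. Whether strand and intronic reads entered the counts is not given in the sources used here. Totals were 56096541 to 90288552 counts. The 25655 genes were filtered with filterByExpr (minimum count 10), scaled by TMM and fitted with edgeR 4.0.16 in R 4.3.3 (glmQLFit and glmQLFTest, Benjamini-Hochberg adjustment over 14992 genes). Calls used the study's threshold, an unadjusted p of at most 0.1 and at least 2-fold. The members and the gene lists were chosen with earlier results of these data known, so members have no test and no list was tested as a set. Named genes were the members, the called genes, the gene with the smallest p in each list, 16 fixed pathway genes and the 5 nearest patterns to Arrdc2 and to Ip6k3. Exon lengths, positions and promoters came from GENCODE vM39. Retinas were grouped by label, and every pair differed beyond sampling noise (the lowest chi-square was 25.5 times its degrees of freedom). The steps were tested on simulated data. Alternatives were other scalings (DESeq2 1.42.0 size factors, upper quartile, library size), filters, tests and thresholds, a replicate block, a sex term and leaving out each retina.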

Additional observations from a re-analysis of the deposited data

How the results depend on the processing

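Scaling, filters and tests changed the direction of no member. The number of genes called moved from 257 to 408 with no filter on low counts, 148 with at least 10 counts in every retina, 168 at an unadjusted p of at most 0.05, 0 at an adjusted p under 0.05 and 1696 at an unadjusted p of at most 0.1 with no fold limit. Related genes called lower went from 4 to 2 with library size only, which moved the median of all genes to -0.11, to 2 at an unadjusted p of at most 0.05, to 0 at an adjusted p and to 16 with no fold limit, where 12 were called higher. With library size only, Hif3a and Fam107a lost their calls through the p alone (unadjusted p = 0.104 and 0.107, edgeR), at log2 fold changes of -1.39 and -1.37.

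Leaving out single retinas gave 164 to 2903 called genes, the most without Sorbinil replicate 3, and 2 to 24 related genes called lower, the fewest without DMSO replicate 3. Fits with 1 Sorbinil retina assume that it varies like the DMSO retinas, so their counts of called genes are not given. The members' median ranged from -1.21 to -0.31 and was -1.20 in the male retinas alone, an alternative chosen after seeing the data. The male value rests on Sorbinil replicate 1 as its only Sorbinil retina. In the female retinas, the log2 ratios of single members ran from -1.36 for Arrdc2 to 0.25 for Pdk4. Between 3 and 6 members were below every DMSO retina and 0 to 1 above. Groups separate more easily with fewer retinas, and the share of all genes with a retina left out is not given here. Nothing is read from these counts. Arrdc2 ranged from -1.56 to -1.22, Ip6k3 from -1.41 to -0.93, Tsc22d3 from -0.39 to -0.21, Txnip from -1.64 to -0.05, Zbtb16 from -2.30 to -0.26, Pdk4 from -1.02 to 0.31 and Sgk1 from -0.35 to 0.54, each range being set by the Sorbinil retina left out. Fkbp5 ranged from -0.54 to -0.05, set by the DMSO retina left out. Values near 0 changed sign for Ip6k1 (-0.15 to 0.073), Sgk3 (-0.39 to 0.17), Pdk2 (-0.44 to 0.00013), Fkbp4 (-0.15 to 0.072) and Klf9 (-0.27 to 0.055). Hif3a was not called without DMSO replicate 2 or 3 (-1.20 and -1.35) and neither Fam107a (-1.01) nor Sult1a1 (-0.97) without DMSO replicate 3. Ip6k2 stood at -1.22 without Sorbinil replicate 1. The causes of these changes were not tested.

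The groups shared only the replicate numbers 1 and 3, whose deviations correlated at -0.24 and -0.12, so the numbers were not taken to pair the retinas. With the replicate block, 203 genes were called in all, 5 related genes were lower, Arrdc2 was -1.42 and Ip6k3 -1.15. Pdk4 rested on 29 to 53 counts in DMSO retinas, the fewest of the members.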
